A study of Mus musculus with 16 samples.

Results

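Agap1 encodes an Arf GTPase-activating protein, and among protein-coding genes it held the most peaks that the authors listed as reproducible for the coactivator PGC-1α in mouse hepatocytes. Its members here are all clusters and all listed peaks whose midpoint lies on the + strand inside the annotated gene, at chr1:89454806-89897617 of mm10 (ENSMUSG00000055013.15, GENCODE M21). A cluster is a region of piled-up reads that carries a log2 fold over input and a −log10 p. By this rule 2634 of 1331383 clusters (0.198%) and 175 of 8478 listed peaks (2.06%) belonged to Agap1. The gene was chosen by its number of listed peaks, so its first place is a description and not a finding. The next gene, the transcriptional coregulator Zmiz1, had 129.

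Primary hepatocytes from C57BL/6J mice were either untreated (control) or given 200 nM glucagon for 3 h, and a night in starvation medium is described for the cultures. The protocol text deposited with the control samples also speaks of glucagon, while their treatment label reads untreated, and groups follow the treatment given in the sample names and labels. PGC-1α was immunoprecipitated (IP) after ultraviolet crosslinking, and the attached RNA was sequenced by seCLIP, a single-end form of eCLIP that sets each IP against an input. Each treatment was read in a lower and an upper band with 2 replicates, giving 8 IP libraries in 4 groups. The labels give neither the age of the mice nor what the bands are. Nothing in them tells if the 2 replicates came from different cultures or mice, so a p-value here reflects the spread between libraries alone, and that spread may be technical. In the listing of libraries below, values run control lower band replicates 1 and 2, control upper band 1 and 2, glucagon lower band 1 and 2, and glucagon upper band 1 and 2.

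Read depth is unknown, because the files give no read counts. The glucagon lower band replicate 1 stood apart with 26279 clusters, against 97629 to 260814 in the other libraries, and results that rest on it are given with and without it. All 8 hepatocyte marker genes had clusters, 229 to 512 per library in all, while 1 of 7 Kupffer cell, 1 of 6 endothelial, 1 of 6 stellate and 2 of 5 cholangiocyte markers had any. These are bulk libraries, so fewer cells that transcribe Agap1 and less Agap1 RNA per cell cannot be told apart in any difference between groups.

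Arf proteins are small GTPases that recruit coats to membranes of the Golgi and endosomes, and Arf GTPase-activating proteins switch them off by stimulating GTP hydrolysis. The Agap1 protein acts on Arf1, carries a GTPase-like domain and ankyrin repeats, and binds the AP-3 adaptor that sorts cargo at endosomes. PGC-1α is known as a coactivator of fasting genes in the liver, where glucagon induces it, and it has an RNA recognition motif and an RS-rich region. Introns are present in RNA before splicing, and after it as excised introns until these are degraded.

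The sequences under the listed peaks near the start of the gene are shown because they carry the densest run of binding that an annotated transcript covers. The transcript Agap1-203, an unspliced form that keeps the beginning of the first intron, spans chr1:89455256-89459706 and held 20 listed peaks in 13 merged regions, all within 2720 nt of the end of exon 1. Capitals mark the bases common to the peaks of all groups that listed the region, read 5′ to 3′ on the + strand from the GENCODE transcript. Region 1 (chr1:89455912-89456014) was listed in both control bands, region 3 (chr1:89456479-89456631) in both control bands and the glucagon upper band, region 5 (chr1:89456949-89457065) in both control bands, and region 11 (chr1:89457964-89458038) in the control lower and glucagon upper bands.
Region 1: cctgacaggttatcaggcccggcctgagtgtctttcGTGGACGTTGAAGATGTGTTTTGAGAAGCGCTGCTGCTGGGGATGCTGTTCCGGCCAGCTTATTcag
Region 3: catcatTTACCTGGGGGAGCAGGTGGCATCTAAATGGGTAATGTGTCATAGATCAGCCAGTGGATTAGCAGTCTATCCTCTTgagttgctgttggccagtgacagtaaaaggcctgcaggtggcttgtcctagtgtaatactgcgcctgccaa
Region 5: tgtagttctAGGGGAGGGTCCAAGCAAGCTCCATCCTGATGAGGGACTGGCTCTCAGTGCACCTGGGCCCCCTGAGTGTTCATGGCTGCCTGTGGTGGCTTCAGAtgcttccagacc
Region 11: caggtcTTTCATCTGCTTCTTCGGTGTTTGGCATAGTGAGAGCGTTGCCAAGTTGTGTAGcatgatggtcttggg

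The 13 regions had a GC content of 41.2% to 61.7%, with a median of 54.3%. Their bases together were 53.5% G or C, beside 52.9% for the unlisted intron bases from the end of exon 1 to the last region and 46.1% for the intron bases of the same transcript after the last region. A further peak is shown because only the glucagon upper band list held it. It lies 28.7 kb into the gene (chr1:89483511-89483656), inside the unspliced transcript annotated as Gm37297, which shares the strand and cannot be told apart from Agap1 pre-mRNA there, and all its bases are in lower case because a single group listed it. Control libraries had enriched peaks there too, with a log2 fold of 3.28 in lower band replicate 1 and 3.01 in upper band replicate 2, beside 3.58 in glucagon upper band replicate 2, so its absence from the control lists was not absence of signal.
Region 14: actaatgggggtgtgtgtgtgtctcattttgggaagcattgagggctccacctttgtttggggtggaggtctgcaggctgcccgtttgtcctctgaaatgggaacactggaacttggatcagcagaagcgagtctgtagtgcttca

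The printed regions hold 10 of the 175 listed peaks. Annotated unspliced transcripts covered 24 listed peaks in all, and the sequences of the others were not used here. The RefSeq promoter window of Agap1 (GRCm38.p6, chr1:89454561-89454860, 80% G or C) held 0 clusters. The first cluster midpoint lay 96 nt into the gene and the last lay 5.32 kb before its end. The nearest clusters outside on the same strand were 301 kb before the gene and 307 kb after it, and 0 clusters lay on the opposite strand within its bounds.

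Along the gene, the first intron carried most of the clusters and almost all of the listed peaks. Agap1-201, the transcript with 18 exons and 17 introns, has a first intron of 149 kb (chr1:89455593-89604597) that makes up 33.6% of the gene. It held 1981 of the 2634 clusters (75.2%) and 169 of the 175 listed peaks. Peaks with both a log2 fold and a −log10 p of at least 3 are called enriched here. Of 632 enriched Agap1 peaks over the 8 libraries, 587 (92.9%) lay in this intron.

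The same held in each library. The first intron took 73.8%, 79.4%, 75.1% and 76.8% of Agap1 clusters in the 4 control libraries and 88.9%, 69.6%, 67.0% and 78.7% in the 4 with glucagon. Its share of enriched peaks was 94.1%, 90.6%, 91.6%, 94.7%, 100%, 100%, 86.4% and 96.4%. The values of 100% stand on 6 and 15 enriched peaks, in the glucagon lower band. Of the clusters inside the first intron 7.35% to 38.3% were enriched, and of those outside it 0% to 15.3%, with the first intron higher in all 8 libraries.

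**Figure D1:**
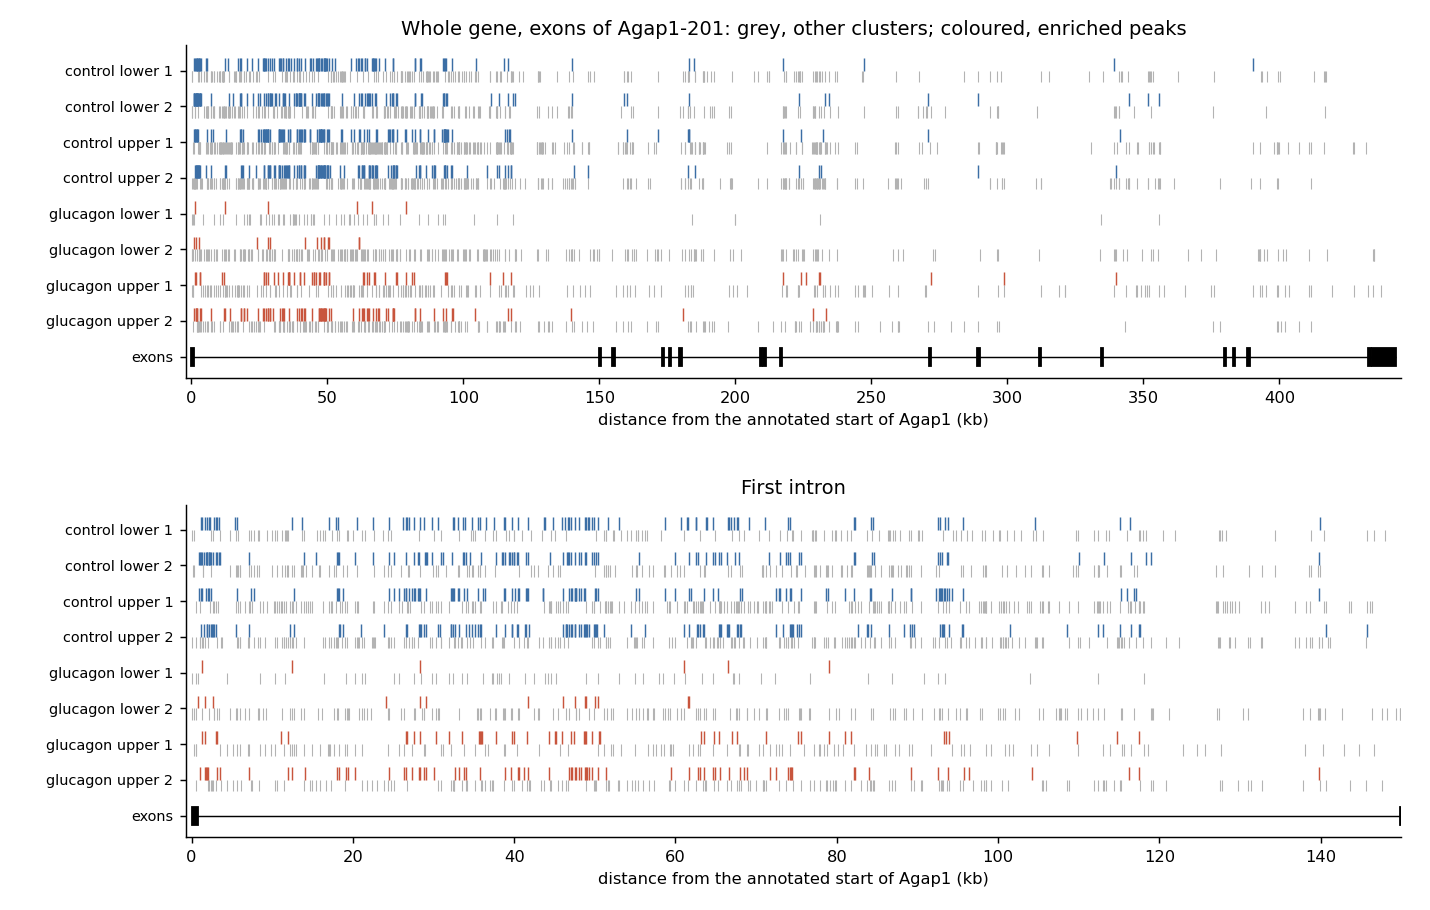
Position of every Agap1 cluster by library, as kb from the annotated start of the gene, over the whole gene (upper) and the first intron (lower). Grey ticks are clusters below a threshold, coloured ticks enriched peaks (blue control, red glucagon) and black boxes the exons of Agap1-201, widened where too thin to see; 587 of 632 enriched peaks lie in the first intron.

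Introns 9, 6, 13 and 3 came next by number of clusters, and all of them are long. Intron 9 (chr1:89671272-89725960) held 231 clusters and 20 enriched peaks, intron 6 (chr1:89634295-89663660) 115 and 9, intron 13 (chr1:89789325-89834433) 89 and 7, and intron 3 (chr1:89609584-89627760) 63 and 4. Per 10 kb and over the 8 libraries, the first intron had 133 clusters and 39.4 enriched peaks, intron 9 had 42.2 and 3.66, intron 6 had 39.2 and 3.06, intron 3 had 34.7 and 2.20, and intron 13 had 19.7 and 1.55. The first intron thus led by density as well as by number. The 6 listed peaks outside it were 3 in intron 9 and 1 each in introns 3, 6 and 11. The 7 introns without a cluster were short, from 0.929 to 5.22 kb, while the shortest intron with one measured 5.99 kb. Exons of Agap1-201 held 28 clusters, 0 of them enriched.

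Within the first intron the enriched peaks thinned out well before its end. Summed over libraries, the first 12 windows of 10 kb held 92 to 202 clusters each, and the last 3 held 37, 43 and 31. Enriched peaks were most frequent between 40 and 50 kb, where 110 of 196 clusters (56.1%) were enriched and 33 peaks were listed. The neighbouring window from 50 to 60 kb had 28 of 152 (18.4%) and that from 30 to 40 kb had 81 of 202 (40.1%). From 120 kb on there were 6 enriched peaks in all (0, 4 and 2 per window) and 2 listed peaks. A second protein-coding transcript, Agap1-202, is annotated to start 125 kb into the gene, in this sparse stretch.

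The stretch from 40 to 50 kb stood out in most libraries taken singly. Its enriched peaks numbered 18, 17, 20 and 22 in control and 0, 5, 11 and 17 with glucagon. It was the window with the most enriched peaks, or tied for it, in 6 of the 8 libraries, the exceptions being control lower band replicate 2, where the first 10 kb held 18, and glucagon lower band replicate 1. That second library had 7 clusters in the stretch, none of them enriched.

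**Figure D2:**
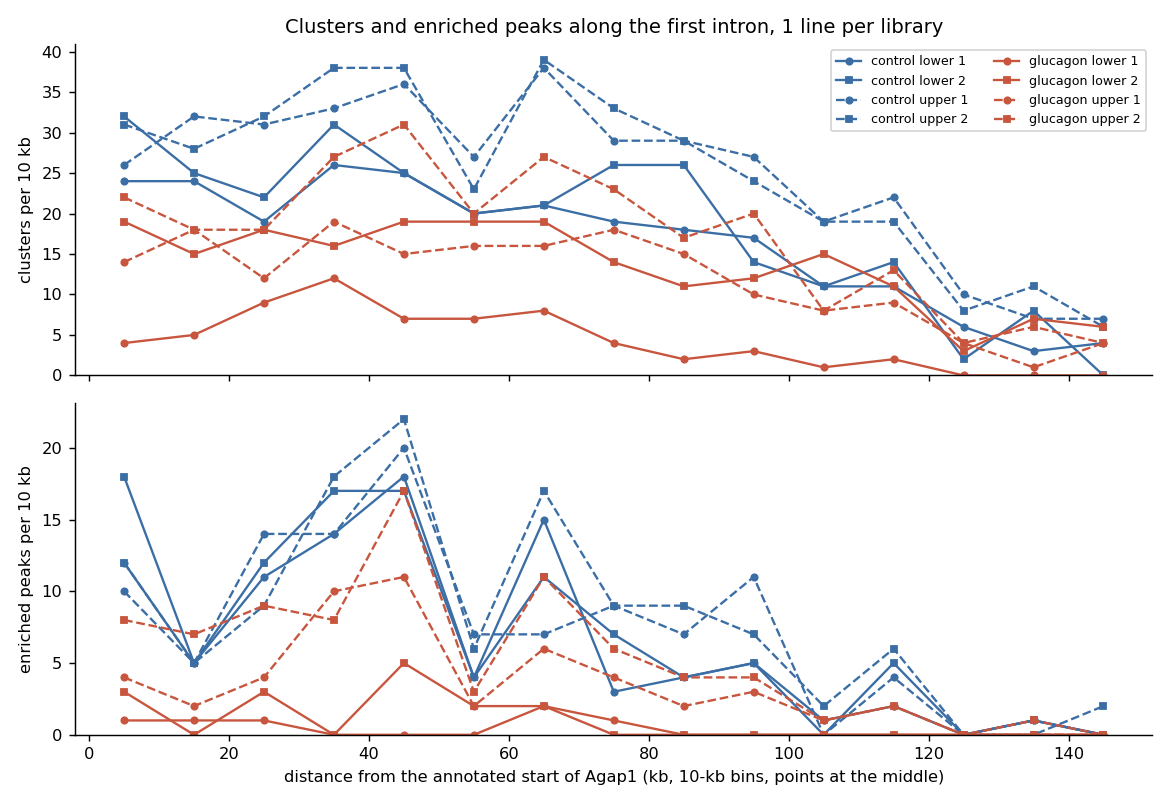
Clusters (upper) and enriched peaks (lower) in windows of 10 kb along the first intron against the distance from the annotated start in kb, 1 line per library (blue control, red glucagon, solid lower band, dashed upper band, circles replicate 1, squares replicate 2). Enriched peaks reach 17 to 22 between 40 and 50 kb in the control libraries and fall to 0 to 2 in each library from 120 kb on.

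Enriched peaks, as defined by both thresholds, differed from the other Agap1 clusters in position and length. Their median distance from the start of the gene was 46.8, 46.6, 48.1, 49.9, 44.7, 46.0, 48.9 and 47.9 kb, while that of the other clusters was 94.8, 81.5, 89.9, 86.5, 44.4, 91.3, 95.6 and 83.9 kb. The enriched peaks thus lay closer to the start in 7 of 8 libraries, by 36.1 kb on average (SD 15.6, n = 8; exact two-sided sign flips p = 0.0156, adjusted p = 0.0234 over 3 tests). The exception was glucagon lower band replicate 1, and without it the mean difference was −41.3 kb. With the log2 fold threshold alone the difference was −14.2 kb (exact sign flips p = 0.102, adjusted p = 0.152), so this result rests on the −log10 p.

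Enriched peaks had a median length of 62, 53, 63, 59, 56.5, 62, 54 and 57.5 nt and the other clusters 33, 37.5, 44, 45, 39.5, 34.5, 43 and 38 nt. They were longer in 8 of 8 libraries, by 19.1 nt (SD 6.30, n = 8; exact sign flips p = 0.00781, the smallest that 8 libraries allow, adjusted p = 0.0234). This too rests in part on the −log10 p, since with the fold alone the difference was 7.75 nt (exact sign flips adjusted p = 0.0703). The −log10 p is part of the definition of an enriched peak, and its own relation to length or to position was not tested. Neither the length test nor the distance test is therefore independent support for a difference. The share within 500 nt of a coding transcript's exon was 2.15% of enriched peaks and 3.34% of other clusters on average, a difference of −1.19 points (SD 2.75, n = 8; exact sign flips p = 0.297). Lower and upper band libraries count as separate units in these tests, and their independence is not known.

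Glucagon was compared with control at the level of the whole gene. Agap1 clusters numbered 336, 349, 497 and 492 in control and 72, 293, 267 and 328 with glucagon. As a share of all clusters of the library they were 0.253%, 0.196%, 0.207% and 0.189% in control and 0.274%, 0.156%, 0.273% and 0.158% with glucagon. The groups overlapped in this share, with 0.211% ± 0.0291 in control and 0.215% ± 0.0675 with glucagon (SD, n = 4 each; exact permutation within bands p = 1). Beside this, 8.67% of 8142 genes with at least 20 clusters had a lower share in all 4 glucagon libraries, and Agap1 was not one of them.

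Enriched Agap1 peaks, which are close to the listed peaks that chose the gene and came mostly from control, are described here with no test. They numbered 101, 117, 119 and 131 in control and 6, 15, 59 and 84 with glucagon, so the 2 treatments did not overlap. As a share of all enriched peaks of the library they were 2.46%, 2.05%, 2.41% and 2.01% in control and 0.613%, 0.533%, 1.79% and 1.10% with glucagon. The mean share was 2.23% ± 0.235 in control and 1.01% ± 0.580 with glucagon (SD, n = 4 each). The difference was −1.22 points. Among 404 genes with at least 20 enriched peaks, 8.66% had lower numbers and 12.4% lower shares in every glucagon library than in every control library. Within the lower band the means were 2.26% in control and 0.573% with glucagon, and within the upper band 2.21% and 1.45%. Leaving out glucagon lower band replicate 1 gave a difference of −1.24 points.

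The folds themselves overlapped between treatments. The median log2 fold of Agap1 clusters was 2.82, 2.81, 2.41 and 2.55 in control and 3.05, 2.01, 2.67 and 2.72 with glucagon, a difference of −0.04 (2.65 ± 0.20 and 2.61 ± 0.43, SD, n = 4 each; exact permutation p = 1). The median −log10 p of the same clusters was 2.48, 3.27, 2.98 and 3.48 in control and 1.82, 0.815, 2.04 and 2.59 with glucagon. In that value 3 of the 4 glucagon libraries lay below all control libraries, and glucagon upper band replicate 2 lay above 1 of them. The highest −log10 p was 18.4 to 24.8 in the control libraries and 4.86, 7.13, 12.2 and 23.6 with glucagon. Over all clusters of the same libraries the median −log10 p was 0.703, 0.512, 0.204 and 0.278 in control. With glucagon it was 1.11, 0.203, 0.922 and 0.683, so there the treatments overlapped. The median log2 fold over all clusters was 1.40, 1.35, 0.910 and 1.05 in control. With glucagon it was 1.62, 0.980, 1.44 and 1.31, and the Agap1 folds were not tested against this baseline.

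The 2 thresholds therefore gave different pictures. A log2 fold of at least 3 was reached by 41.1%, 41.8%, 27.4% and 30.5% of Agap1 clusters in control and by 54.2%, 15.4%, 38.2% and 37.2% with glucagon, and the groups overlapped. Of the clusters that reached it, 73.2%, 80.1%, 87.5% and 87.3% in control and 15.4%, 33.3%, 57.8% and 68.9% with glucagon also had a −log10 p of at least 3, and the groups did not overlap. Over all genes of the same libraries, the share of such clusters with that −log10 p was 37.8%, 49.5%, 55.8% and 62.1% in control and 16.98%, 47.5%, 28.1% and 49.4% with glucagon. The part of read depth in these differences was not tested.

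Agap1 clusters with a log2 fold of at least 3, whatever their p, made up 1.27%, 1.27%, 1.54% and 1.43% of all such clusters in control and 0.676%, 0.759%, 0.871% and 0.793% with glucagon. This share did not overlap between treatments either, with a difference of −0.601 points. A share lower in every glucagon library was found for 7.08% of 946 genes with at least 20 such clusters. The denominator moved as well: 21.9% of all clusters of glucagon lower band replicate 1 and 11.99% of those of glucagon upper band replicate 1 reached this fold, beside 3.15% to 8.21% in the other 6 libraries.

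**Figure D3:**
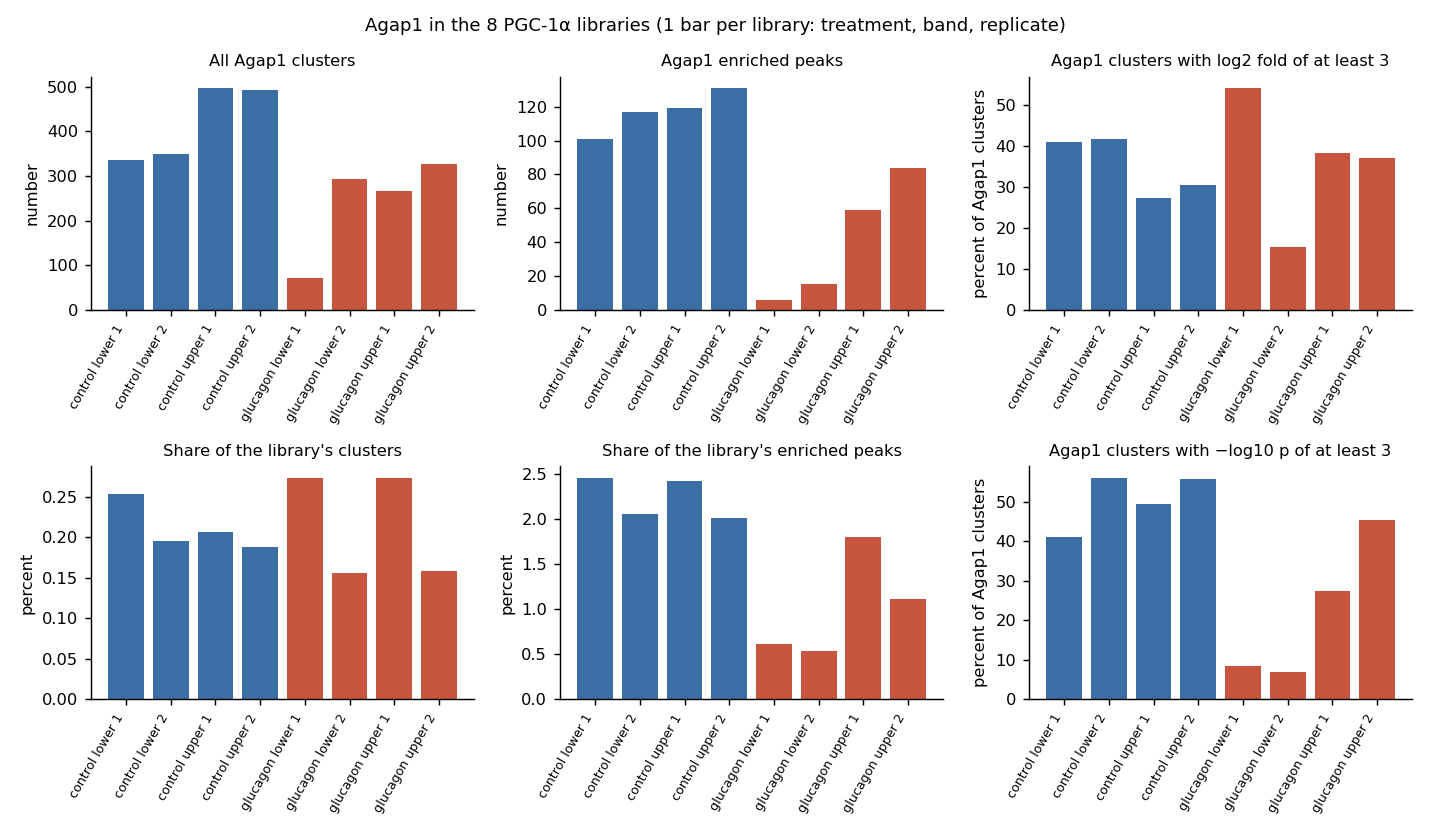
Values of Agap1 in each library as bars from 0 (blue control, red glucagon; treatment, band and replicate under each bar): numbers and shares of clusters and of enriched peaks, and the percent of Agap1 clusters past each threshold. Enriched peaks number 101 to 131 in control and 6 to 84 with glucagon, while the share of all clusters overlaps between treatments.

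Folds in the glucagon lower band took few distinct values. The 72 Agap1 clusters of glucagon lower band replicate 1 had 19 different log2 folds, and 15 of them (20.8%) shared the value 4.05. In glucagon lower band replicate 2 there were 52 values for 293 clusters, and the value 1.43 recurred 39 times. In control upper band replicate 2, by contrast, 492 clusters took 194 values, of which the most frequent recurred 19 times. A single fold in the glucagon lower band is therefore a coarse measurement.

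**Figure D4:**
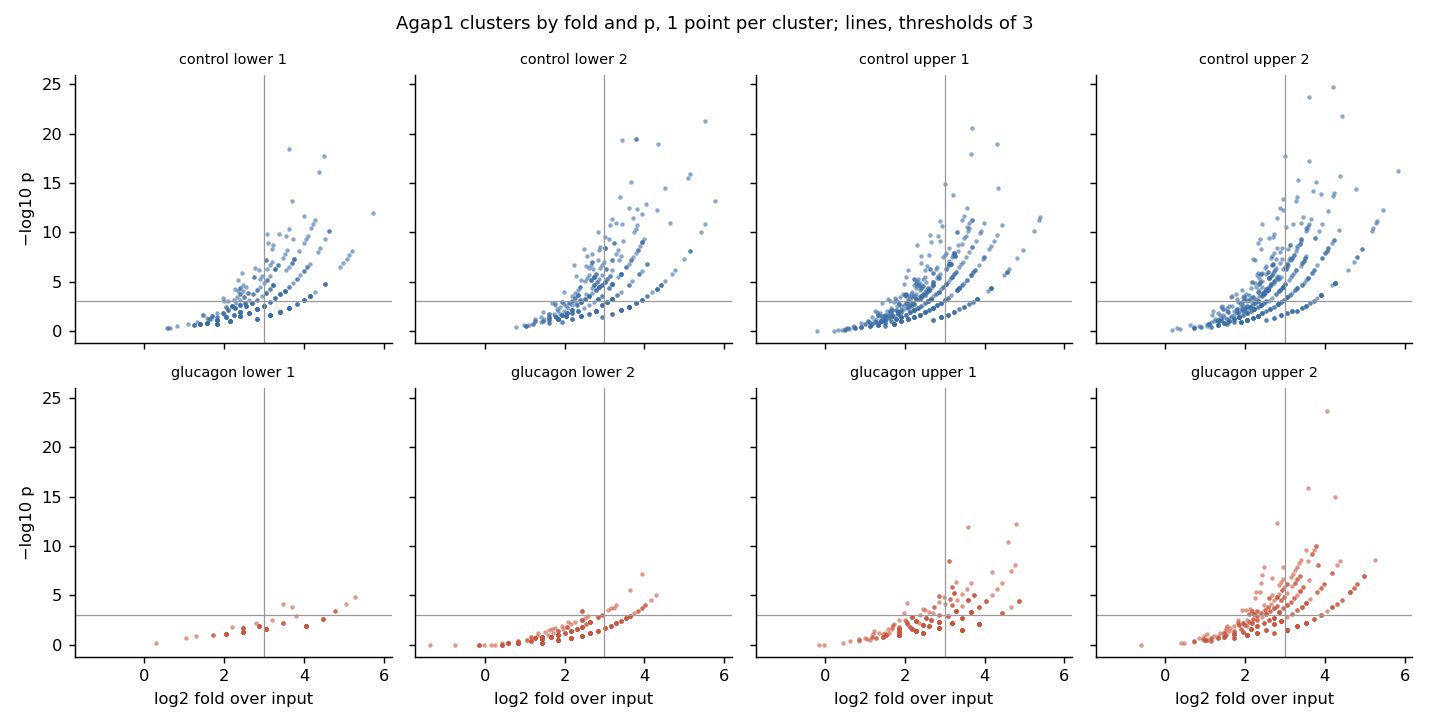
The −log10 p of each Agap1 cluster against its log2 fold over input, 1 panel per library and 1 point per cluster, with lines at the thresholds of 3. Points fall on arcs of repeated values, and in the 2 glucagon lower band libraries few clusters rise above a −log10 p of 3 (6 of 72 and 20 of 293).

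The percent of Agap1 clusters that were enriched was above that of all clusters in each of the 8 libraries. It was 30.1%, 33.5%, 23.9%, 26.6%, 8.33%, 5.12%, 22.1% and 25.6%, where all clusters of the same libraries gave 3.1%, 3.19%, 2.05%, 2.5%, 3.73%, 1.5%, 3.37% and 3.66%. The rule chose Agap1 for many listed peaks, so this excess is a description. Between treatments the value averaged 28.5% ± 4.16 in control and 15.3% ± 10.1 with glucagon (SD, n = 4 each), a difference of −13.2 points, also given with no test. At a log2 fold of at least 2 the difference was −27.7 points, and at least 4 it was −1.87 points. The upper band libraries with glucagon lay inside the control range or within 2 points of it, and the lower band ones lay far below it. With the fold alone the difference was 1.04 points, in the other direction.

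The bands were compared over both treatments. Of all enriched peaks, Agap1 held on average 1.41% ± 0.986 in the lower and 1.83% ± 0.548 in the upper band (SD over 4 libraries each; difference 0.416 points). The median distance of enriched peaks from the start of the gene was 44.7 to 46.8 kb in the lower band and 47.9 to 49.9 kb in the upper, without overlap. This difference of 2.66 kb had p = 0.0556, the smallest the exact permutation within treatments allows, and an adjusted p of 0.333 over 12 tests, so it did not pass the threshold of 0.05. At a log2 fold of at least 2 or 4 it was 7.48 and 6.98 kb. Leaving out glucagon lower band replicate 1, whose median rests on 6 enriched peaks, gave 2.33 kb. Between treatments the same distance differed by −0.978 kb (exact permutation p = 0.222). The median log2 fold differed between bands by −0.09 (exact permutation p = 0.833).

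The authors' reproducible lists differed widely in their number of Agap1 peaks. Agap1 had 57 of 2206 peaks in the control lower band list (2.58%), 96 of 3692 in the control upper (2.60%), 1 of 413 in the glucagon lower (0.242%) and 21 of 2167 in the glucagon upper (0.969%). Among protein-coding genes it ranked first in both control lists, 5th of 683 genes in the glucagon upper list and 50th of 107 in the glucagon lower list. Per 100 kb of gene it had 39.5 listed peaks, beside a median of 5.23 over the 1195 protein-coding genes with any, and ranked 138th. Of its 175 listed peaks 153 came from the control lists, and their sum chose the gene, so the contrast between lists is a description and supports nothing. With 1 list per group these counts have no replicate check, and how the authors combined replicates into a list is not given in the sources used here.

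Absence from a glucagon list was not absence of clusters. Of the 57 peaks listed in the control lower band, 9 overlapped an enriched peak in a glucagon library of the same band, 28 overlapped only clusters below a threshold and 20 overlapped none. Of the 96 listed in the control upper band, 48 overlapped an enriched glucagon peak, 30 only weaker clusters and 18 none. All 21 peaks listed in the glucagon upper band overlapped a control cluster of that band, and 16 overlapped an enriched one. Within their own groups, 41 of the 57, 46 of the 96 and 12 of the 21 peaks overlapped an enriched peak in both replicates. The others had only clusters below a threshold in at least 1 replicate of their own group. The glucagon lists held 1 and 12 peaks that overlapped listed control peaks of their own band, 1 of 1 and 12 of 21. From the other side these were 1 of 57 and 12 of 96 control peaks. Such overlaps were not counted over the listed peaks of all genes, so no trait of Agap1 is read from them.

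Merged over the 4 lists, the peaks formed 128 regions covering 9318 nt, with a median length of 68 nt. Of these regions 108 were listed in control groups alone (26 in the lower band, 62 in the upper and 20 in both), 7 in the glucagon upper band alone and 13 in both treatments. Over all genes, 5898 of the 8478 listed peaks came from the control lists. Merged regions were not counted over all genes, so no trait of Agap1 is read from their numbers. A single region, at 28.4 kb, was in all 4 lists. Replicates shared part of their enriched sites: 44 of 99 and 108 in the control lower band, 44 of 110 and 121 in the control upper band, 1 of 6 and 14 in the glucagon lower band, and 15 of 57 and 79 in the glucagon upper band.

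Overlapping clusters of the 8 libraries merged into 1095 sites, which allowed the same stretch to be followed across libraries. The log2 fold of a site in a library is the highest of its clusters there, and these need not overlap between libraries. Of these, 550 were covered in 1 library, 8 in all 8, and 309 were enriched in at least 1. Enriched sites were mostly sparse, with 171 enriched in a single library, 19 in at least 5, 3 in 7 and 0 in all 8. By treatment 83 sites were enriched in both, 181 in control alone and 45 with glucagon alone. Of the 181, 104 still had a cluster in a glucagon library. Enriched peaks of all genes numbered 4110, 5694, 4929 and 6523 in control and 979, 2816, 3288 and 7603 with glucagon. Sites enriched in 1 treatment alone, here and below, were not counted over all genes, so no trait of Agap1 is read from their numbers.

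The region in all 4 lists belongs to the site at 28.4 kb (chr1:89483097-89483228, intron 1). Its log2 fold was 4.37, 2.84, 3.65 and 4.20 in control and 5.27, 3.65, 3.57 and 4.05 with glucagon. It was enriched in 7 libraries, among them all 4 with glucagon, and missed the fold threshold only in control lower band replicate 2. Its −log10 p was 16.1, 10.1, 17.9 and 24.8 in control and 4.86, 5.55, 11.9 and 23.6 with glucagon, and the first of the glucagon values was the highest −log10 p of any Agap1 cluster in that library.

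The other sites named as the 5 enriched in most libraries lay at the start of the gene and in the densest stretch. The site at 48.8 kb (chr1:89503533-89503764) had log2 folds of 3.99, 5.52, 4.30 and 4.43 in control and 4.05, 3.30, 3.60 and 3.89 with glucagon. The site at 1.82 kb (chr1:89456457-89456801), which contains region 3, had 3.69, 4.52, 3.68 and 4.23 in control, no cluster in glucagon lower band replicate 1, and 3.09, 4.60 and 3.77 in the other glucagon libraries. Both were enriched in 7 libraries, in all 4 of control and 3 with glucagon.

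The site at 47.0 kb (chr1:89501764-89501833) held the listed Agap1 peak of highest fold, 5.41 in the control upper band. Its log2 folds were 3.91, 5.52, 5.37 and 5.45 in control and 4.77 and 3.18 in the glucagon upper band, and neither glucagon lower band library had a cluster there. The site at 47.6 kb (chr1:89502270-89502487) had 3.88, 4.42, 3.78 and 5.84 in control, and 4.01 and 5.25 in replicate 2 of the glucagon lower and upper bands. At both sites all 4 control libraries were enriched, and 2 of 4 glucagon libraries were. Enrichment in 6 libraries was also found at 2 further sites with a lower mean fold. The site at 50.4 kb (chr1:89505164-89505303) had log2 folds of 4.19, 3.61, 3.55 and 2.95 in control and 2.47, 3.93, 4.67 and 3.81 with glucagon, so 3 libraries of each treatment were enriched. The site at 26.5 kb (chr1:89481300-89481396) had 4.09, 3.07, 3.11 and 3.40 in control, 3.27 and 4.81 in the glucagon upper band, and no cluster in the glucagon lower band.

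Some peaks with high folds in the control lower band were less even. At 46.8 kb (chr1:89501558-89501657) the log2 folds were 4.63, 5.78, 3.69 and 3.07 in control, and 2.43 and 3.58 in replicate 2 of the glucagon lower and upper bands. At 27.6 kb (chr1:89482338-89482489) they were 5.73, 4.66, 3.57 and 2.88 in control, and 2.47, 2.43 and 4.67 in the 2 glucagon lower band libraries and glucagon upper band replicate 1. In both sites the control lower band lay above the control upper band. Both were picked for the highest folds of the control lower band list, so this order is a description and no difference between bands. The longest site, 396 nt at 7.20 kb (chr1:89461806-89462201), was enriched in 3 control libraries and 1 glucagon library, with folds between 1.75 and 4.31, and was in no list.

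Enrichment in at least 3 control libraries and in 0 glucagon libraries was found at 11 sites, and 9 of the 11 had a glucagon cluster below a threshold. The highest mean control fold among them belonged to the site at 2.38 kb (chr1:89457085-89457279), with 4.28, 3.72, 3.61 and 3.61 in control. Its only glucagon cluster, in upper band replicate 2, had a log2 fold of 2.80 with a −log10 p of 12.3, just under the fold threshold. At 32.4 kb (chr1:89487120-89487228) the values were 3.14, 3.20, 5.23 and 3.58 in control and 3.05 and 2.72 in glucagon lower band replicate 1 and upper band replicate 2. The first of these passed the fold but had a −log10 p of 1.55.

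The next sites of this kind had at most 2 glucagon clusters. At 49.9 kb (chr1:89504635-89504758) folds were 4.04, 3.73, 2.80 and 4.58 in control, and 2.65 and 2.72 in replicate 2 of both glucagon bands. At 35.5 kb (chr1:89490284-89490352) they were 5.14, 2.86, 3.53 and 3.12, with 2.07 in glucagon lower band replicate 2. At 116 kb (chr1:89571179-89571259) they were 3.99, 3.93, 2.82 and 3.43, with no cluster in any glucagon library. This last site lies inside Gm28499, a gene annotated within the intron on the same strand. Gm28499 spans 68 of the Agap1 clusters, with 17 enriched and 4 listed peaks, and its RNA cannot be told apart from Agap1 pre-mRNA there. These sites were picked for their difference between treatments, so their values are a description with no test.

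A pattern in the other direction, enrichment in 2 glucagon libraries and in 0 control libraries, was found at 3 sites, and enrichment in at least 3 glucagon and 0 control libraries at 0 sites. At 79.0 kb (chr1:89533804-89533849) glucagon lower and upper band replicates 1 had log2 folds of 3.69 and 3.24, and no control library had a cluster. At 11.9 kb (chr1:89466695-89466777) the glucagon upper band had 3.67 and 3.25, and control had 2.40, 2.29 and 1.56, with no cluster in upper band replicate 1. At 44.3 kb (chr1:89499020-89499121) the glucagon upper band had 3.67 and 3.14, and control had 2.35, 2.23 and 1.45, with no cluster in lower band replicate 1. The last 2 were listed in the glucagon upper band.

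**Figure D5:**
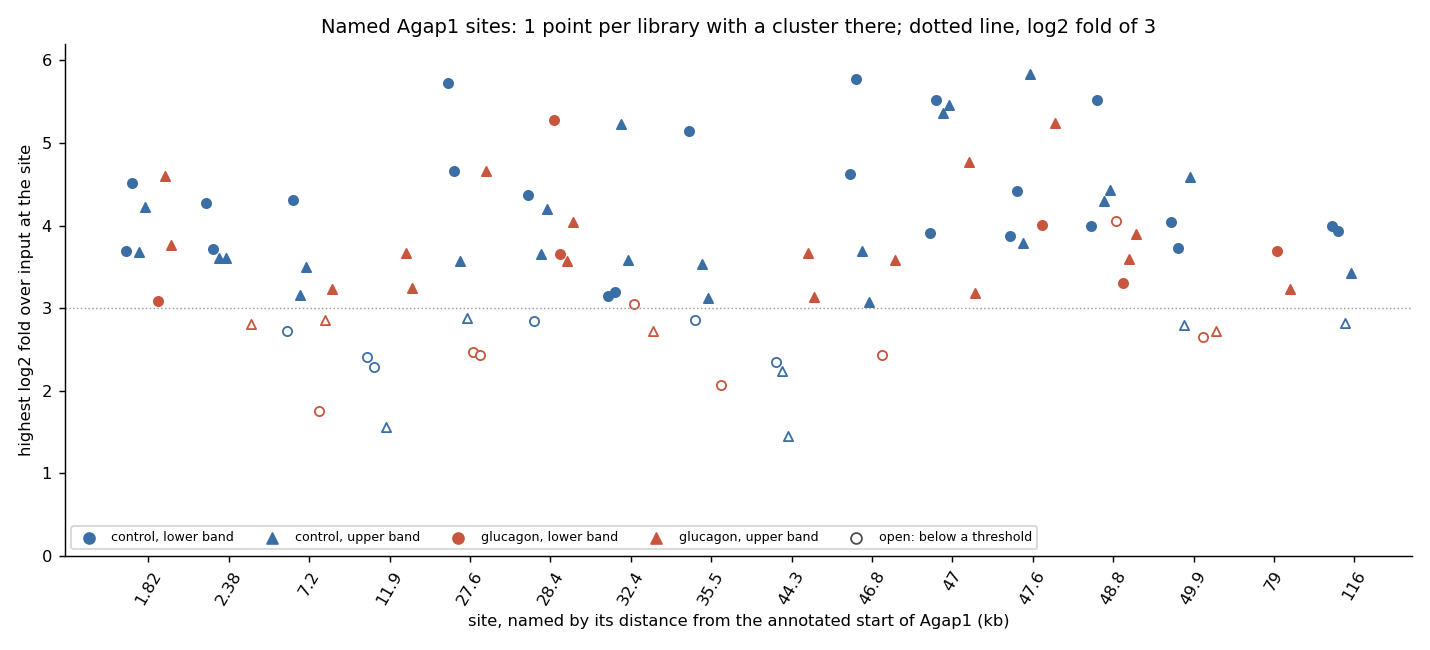
Highest log2 fold over input in each library at the 16 named Agap1 sites, ordered by distance from the annotated start in kb (blue control, red glucagon, circles lower band, triangles upper band; open symbols are below a threshold). A library without a cluster at a site has no point; the site at 28.4 kb has 8 points from 2.84 to 5.27, and that at 116 kb has none with glucagon.

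Folds could be compared in every library at 8 of the 1095 sites, those with a cluster in all 8 libraries. This choice leaves out any site whose clusters were missing in a group. Their mean log2 fold was 3.37, 3.60, 3.16 and 3.00 in control and 3.68, 2.40, 2.73 and 3.54 with glucagon. The difference of −0.19 was smaller than the spread between libraries (3.28 ± 0.26 and 3.09 ± 0.62, SD, n = 4 each; exact permutation p = 0.722). Over the 159 sites covered in at least 2 libraries of each treatment, 96 had the higher mean fold in control, and the median difference was −0.21. This count was not made over sites of all genes, so no trait of Agap1 is read from it. Sites of 1 gene share its RNA and its libraries and are not independent.

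Other genes on the same stretch of chromosome 1 had few enriched peaks. Within 1 Mb, Sh3bp4, which encodes an endocytic adaptor and ends 300 kb before Agap1, had 39, 57, 81 and 79 clusters in control and 0, 3, 0 and 8 with glucagon, with 8 enriched peaks and 2 listed. These are numbers and not shares, and glucagon lower band replicate 1 had only 26279 clusters in all. A lower share of clusters in all 4 glucagon libraries was found for 8.67% of 8142 genes with at least 20 clusters. Cops8, a subunit of the COP9 signalosome, had 48 clusters, the chemokine receptor gene Ackr3 had 4 and Arl4c, an Arf-like GTPase, had 3, with 0 enriched in each. Glrp1, Gbx2, Asb18, Iqca and Col6a3 had none.

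Where other genes of the Arf pathway had listed peaks, they had 1 to 5 each. Of 23 Arf GTPase-activating protein genes 5 had one (Agap1 with 175, Asap2 with 2 and Agfg1, Arap1 and Git1 with 1 each), and of 16 Arf and Arl GTPase genes 3 did (Arf3 with 5, Arf1 and Arl5a with 1 each). Of 14 Arf exchange factor genes 4 did (Cyth1 with 4, Arfgef1, Arfgef2 and Psd3 with 2 each), and of the 7 genes of the AP-3 complex 1 did (Ap3b1 with 1). Counted over members with a cluster, 25% (Agap1 included), 20%, 40% and 20% of the 4 lists had a listed peak, beside 9.40% of all 13397 genes with a cluster. The members also had more clusters, with list medians of 93.5, 64, 48 and 91 beside 35 over all these genes. Psd3, with 523 kb a longer gene than Agap1, had 2436 clusters but 15 enriched peaks.

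The genes whose enriched peaks varied most like those of Agap1 were found by Pearson correlation over the 8 libraries, on log2 of the enriched peaks per 1000 of the library plus 0.5, among 403 genes with at least 20 enriched peaks. They were Ahnak, a giant scaffold protein gene (r = 0.979), the DNA repair gene Mgmt (0.971), Spred2, an inhibitor of Ras signalling (0.967), Trio (0.966), and Anp32b, which encodes a nuclear acidic phosphoprotein (0.959). The median r over the 403 genes was 0.303, and 14 exceeded 0.9. Ahnak had 17, 17, 15 and 16 enriched peaks in control and 0, 0, 4 and 4 with glucagon, and Trio had 20, 31, 24 and 30 in control and 2, 4, 12 and 18. All genes share the libraries and their totals, so these correlations describe likeness only.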

How the data were processed

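Mouse hepatocyte seCLIP libraries of PGC-1α were analysed, 8 IP libraries in 4 groups of 2, with groups taken from source names; the 8 inputs were not analysed here. The submitters' processing notes name cutadapt, STAR and the build mm10. A peak caller and the rule that made the lists are not given in the sources. The deposited peak files carry a −log10 p, capped at 400, and a log2 fold over input for each cluster. Both units were read from the values the authors deposited, since the files have no header. The authors called clusters per library, and 1 list per group holds reproducible peaks.

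Midpoint and strand placed each cluster or listed peak in GENCODE M21. Enriched peaks had a log2 fold and a −log10 p of at least 3. Sites are clusters of the 8 libraries that overlap by at least 1 base. Exact two-sided permutation compared treatments within bands and bands within treatments (36 assignments each), and enriched peaks with other clusters by exact sign flips over 8 libraries, with Benjamini-Hochberg adjustment over 12 and 3 tests. A planned comparison of GC content needs a genome sequence and was not run. Depth is unknown, and precision is limited by the number of clusters per library.

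Named sites are the 2 of highest fold per list, the 5 enriched in most libraries, up to 5 enriched in at least 3 control and 0 glucagon libraries, up to 5 enriched in at least 2 glucagon and 0 control libraries, and the longest. Named genes are the 5 most like Agap1, protein-coding genes within 1 Mb, and Arf pathway genes with a listed peak; Zmiz1 and the sites at 26.5 and 50.4 kb were named after their values were seen. Planned permutation tests of the share and percent of enriched peaks are not printed, because the listed peaks that chose the gene are nearly the same values. Agap1, the lists and the tests were chosen with earlier results of these data known. Alternatives covered the thresholds, the overlap rules, the removal of Neat1, a replicate block and leaving out each library. The tests and the counting of clusters per gene were tested on simulated data. Software was matplotlib 3.10.9, scipy 1.17.1, pandas 2.3.3, numpy 2.4.6 and Python 3.11.15.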

Additional observations from a re-analysis of the deposited data

Results flagged for a closer look

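The percent of Agap1 clusters that were enriched differed between bands in opposite directions in the 2 treatments. In control the upper minus lower band difference was −6.51 points, with both upper band libraries (23.9% and 26.6%) below both lower band libraries (30.1% and 33.5%). With glucagon it was 17.1 points, with 22.1% and 25.6% above 8.33% and 5.12%. The 2 differences are −23.6 points apart, and this gap was not tested. No library stood apart from the other 3 of its treatment or of its band by Dixon's criterion on the gap to its nearest neighbour, over 44 such groups of 4 formed from 11 Agap1 measures. The total number of clusters of a library was not among these measures.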

How the results depend on the processing

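Of 191 recomputed values 176 kept their direction. The 12 treatment and band differences could not reach the threshold of 0.05 in this design, so only their direction is counted; of 40 recomputed differences between enriched peaks and other clusters, 38 kept direction and call. A log2 fold of at least 2 or 4 kept every direction but moved sizes: the enriched percent to −27.7 and −1.87 points between treatments and 15.6 and 0.438 between bands, and the distance to −3.22 and −7.30 kb between treatments and 7.48 and 6.98 kb between bands. At a fold of at least 2 the distance of enriched peaks against other clusters was −57.3 kb, and at a −log10 p of at least 5 the share of enriched peaks differed by −2.12 points between treatments; glucagon lower band replicate 1 then had no enriched peak, so the treatment and band distances have no value. At shared sites a mean fold per site gave −0.26 between bands, and a stricter overlap −0.32 between bands and −0.10 between treatments. Any overlap with the gene, removal of Neat1 and a limit of 200 nt from exons moved none by over 1.5 times. The control peaks overlapping a glucagon peak of their band stayed at 13.

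Dropping the −log10 p threshold, chosen after seeing the data, turned the enriched percent to 1.04 points between treatments and −4.80 between bands and the distance between treatments to 4.07 kb. It gave −0.601 and 0.165 points for the share of enriched peaks between treatments and bands, 9.34 kb for the distance between bands and −1.98 points for the share near exons, and ended the calls on the length (7.75 nt) and distance (−14.2 kb) of enriched peaks against other clusters.

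Leaving out each library gave ranges that cross 0, glucagon minus control, for the share of clusters (−0.0254 to 0.0336 points), the median fold (−0.29 to 0.22) and the fold at shared sites (−0.42 to 0.16), and upper minus lower band for the same (−0.0425 to 0.0166 points, −0.35 to 0.17, −0.57 to 0.20). The ends of these ranges come from leaving out either glucagon lower band library; a direction also turned without control lower band replicate 1 or 2, control upper band replicate 2 or either glucagon upper band library. The share of enriched peaks stayed between −1.39 and −1.05 points. The causes were not tested.

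The replicate numbers share no stated culture, and deviations of same-numbered libraries at Agap1 sites had r from −0.747 to 0.0543 over 6 pairs of groups. The lowest r rests on 10 sites and the highest on 108, so these values do not settle whether the libraries were paired. With the replicate block the difference in the share of enriched peaks stayed at −1.22 points, and the smallest p its 16 exact permutations allow is 0.125, so no call is possible there.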
